A study of Homo sapiens with 12 samples.

Results

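The 4 Y RNAs scr-HY1, scr-HY3, scr-HY4 and scr-HY5 are the only entries typed as scRNA (small cytoplasmic RNA) in the deposited tables, and all 4 are listed in both tables. They are 4 of 1231 noncoding RNA entries in the table without LPS and 4 of 1139 in the table with LPS. The cells were of the human monocyte-like line Mono Mac 6 (MM6). The study sequenced small RNA of wild-type MM6 cells and of ALOX-5 -/- MM6 cells (5-LOΔ), in which CRISPR/Cas9 disrupted the gene of 5-lipoxygenase. All cells, the wild-type ones included, were treated with TGF-b (1 ng/mL) and calcitriol (50 nM) for 72 h, which differentiates them. Some of the cells also received LPS, an activator of monocytes from the bacterial cell wall, at 1 µg/mL for 6 h, so that there were wild-type, 5-LOΔ, LPS-treated wild-type and LPS-treated 5-LOΔ cells with 3 libraries each. Per the study's methods the 5-LOΔ cells came from a pair of single-cell clones, and the labels do not say which clone gave which library. The 5-LOΔ cells were also transduced with lentivirus and selected with puromycin. The methods give no such steps for the wild-type cells, so differences between genotypes cannot be told apart from those of transduction, selection or cloning.

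Y RNAs are short transcripts of RNA polymerase III. Their 5′ and 3′ ends pair into a stem that is bound by the Ro60 protein (an autoantigen of lupus and Sjögren syndrome), while the uridine-rich 3′ end of the transcript is bound by La. They have been linked to RNA quality control and to the start of DNA replication, and fragments cut from them are common in blood cells and in extracellular vesicles. The upper part of the RNA differs between the members and binds further proteins, such as nucleolin on Y1 and Y3.

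In GRCh37 (the genome release that hg19, named in the methods, corresponds to) the genes RNY5, RNY4, RNY3 and RNY1 lie together on chromosome 7, within 45761 bp. RNY5 is annotated from 148638580 to 148638658 and RNY4 from 148660407 to 148660502, both on the forward strand, as is RNY3. RNY1 is on the reverse strand from 148684228 to 148684340. GENCODE types each as misc_RNA, a noncoding gene of its own and not an exon or intron of a coding gene. RNY5 lies inside a lncRNA gene of the same strand, ENSG00000286171. The names of all 4 entries are listed as synonyms of these genes in RefSeq. The sequences of scr-HY1, scr-HY4 and scr-HY5, read from the genome as DNA from 5′ to 3′, are shown because the counts rest on telling the members apart, and the capitals mark the longest run of bases that these 3 share:
scr-HY1: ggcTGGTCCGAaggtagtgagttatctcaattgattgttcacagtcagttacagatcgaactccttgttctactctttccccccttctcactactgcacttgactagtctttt
scr-HY4: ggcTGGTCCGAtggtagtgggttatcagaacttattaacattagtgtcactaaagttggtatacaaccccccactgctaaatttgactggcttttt
scr-HY5: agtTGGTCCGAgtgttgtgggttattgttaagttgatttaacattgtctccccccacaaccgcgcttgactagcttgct

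The shared run, TGGTCCGA, sits at positions 4 to 11 of each of these 3, in the 5′ strand of the stem. In the predicted fold of lowest free energy, 17 base pairs of scr-HY1, 20 of scr-HY4 and 20 of scr-HY5 joined the first 30 to the last 30 bases. As annotated, the members are 113 (scr-HY1), 102 (scr-HY3), 96 (scr-HY4) and 79 (scr-HY5) nt long. The stretches of scr-HY1 and scr-HY4 end in runs of 4 and 5 T, while that of scr-HY5 ends in 1 T, so the annotated stretch of scr-HY5 does not hold a uridine-rich 3′ end and its length and base pairs are those of this stretch. scr-HY1 and scr-HY4 had identical bases at 63.7% of aligned positions, scr-HY4 and scr-HY5 at 59.4%, and scr-HY1 and scr-HY5 at 57.0%. None of these pairs shared an exact run of more than 11 bases, so a read of ordinary miRNA length that matches 1 of the 3 without mismatches does not match the others. Copies exist elsewhere in the genome. A search of the chromosomes of GRCh37 found 76 places with at least 90% identity over at least 90% of the length for scr-HY1, 51 for scr-HY4 and 4 for scr-HY5, each count including the gene itself. Only 1 place matched every base of each of these members. The entries carry the member's name with no position, and the sources used here do not say whether reads of such copies were added to them.

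The libraries were size-selected for inserts of up to 134 nt, which admits full-length Y RNAs, but the reads were shorter than any of the members, so a count covers whole Y RNAs and their fragments alike. The deposited values are the authors' means of normalized counts over the 3 libraries of a group. They allow no SD and no new test between genotypes. The tables also hold p-values and FDR of the authors' own comparison, which were not used here. The low values of the tables reveal the size factors of the libraries, from which each mean was given a counting error. The 95% intervals given with the values cover the sampling of reads only, and PCR copies of a molecule are not told apart. The size factors ran from 0.665 to 1.72 over the 12 libraries, and the largest difference in depth within a group was 2.58-fold, among the LPS-treated wild-type libraries. The ALOX5 transcript is not measured by small RNA sequencing, so the genotype was not checked from these data.

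scr-HY4 was the most abundant member in every group. Without LPS its mean was 18730 (wild-type) and 16578 (5-LOΔ) normalized counts. With LPS it was 15915 in wild-type and 18378 in 5-LOΔ cells. These values place it between rank 59 and rank 68 of the entries of its table.

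scr-HY1 came second. Without LPS its mean was 6522 normalized counts in the wild-type group and 5092 in the 5-LOΔ group. With LPS it was 5211 in wild-type and 6374 in 5-LOΔ cells. As for scr-HY4, the knockout mean was the lower of the pair in one table and the higher in the other.

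scr-HY5, which has been found in a Ro60 complex with ribosomal protein L5 and 5S rRNA, had a mean of 4187 (wild-type) and 3229 (5-LOΔ) normalized counts without LPS. With LPS its mean was 3474 in wild-type and 3739 in 5-LOΔ cells. It changed sides between the tables in the same way.

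scr-HY3 was lower in 5-LOΔ cells in both tables. Without LPS its mean was 3870 normalized counts in the wild-type group and 1526 in the 5-LOΔ group. With LPS it was 3176 in wild-type and 1781 in 5-LOΔ cells. Both knockout means were below both wild-type means, although the tables were normalized separately and levels are comparable only within one.

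**Figure D1:**
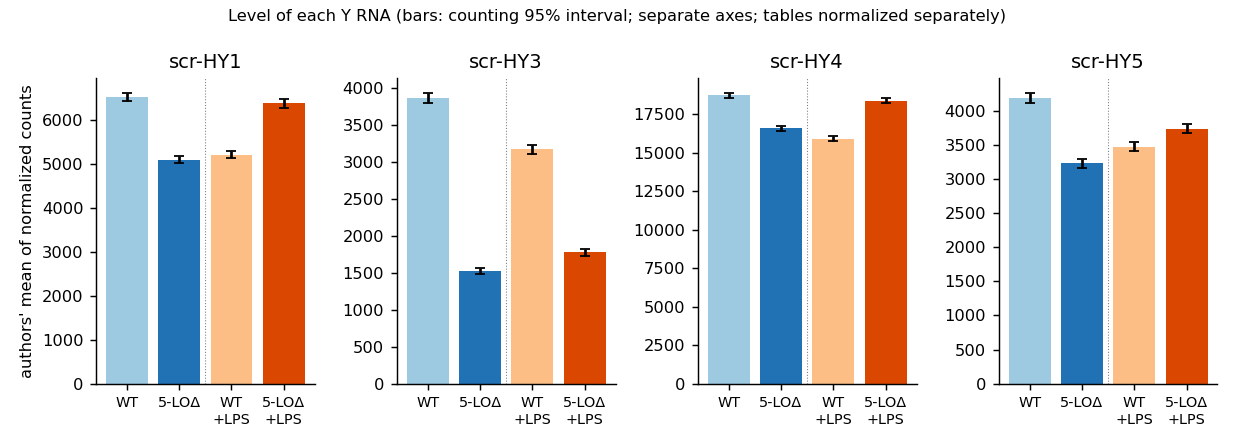
Level of each Y RNA as the authors' mean of normalized counts (y axis, starting at 0, own scale per panel) in the 4 groups (x axis), with counting 95% intervals as error bars and a dotted line between the separately normalized tables. For scr-HY3 both knockout bars (1526 and 1781) stand below both wild-type bars (3870 and 3176), while the other members are, as deposited, lower in knockout cells without LPS and higher with LPS.

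Per nucleotide of annotated gene length, the order was scr-HY4, scr-HY1, scr-HY5 and scr-HY3 in all 4 groups. A count covers whole Y RNAs and fragments alike and need not rise with gene length. These values are therefore a rescaling of the counts and not levels of molecules. For scr-HY5 the length is that of the annotated stretch without a uridine-rich 3′ end. Without LPS, scr-HY4 of wild-type cells had 195 normalized counts per nt, scr-HY1 57.7, scr-HY5 53.0 and scr-HY3 37.9. In 5-LOΔ cells without LPS these values per nt were 173, 45.1, 40.9 and 14.96. The distance between scr-HY5 and scr-HY3 was the part of the order that differed most between genotypes. With LPS, scr-HY3 had 31.1 normalized counts per nt in wild-type and 17.5 in 5-LOΔ cells, and scr-HY5 had 43.97 and 47.3. Whether neighbours in this order differ beyond the spread between libraries cannot be told from means.

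The share of each member in the sum of the 4 does not depend on how columns or tables were scaled, so it can be set side by side across all groups. scr-HY3 made up 11.6% of the Y RNA signal in wild-type cells without LPS (95% counting interval 11.4% to 11.8%) and 11.4% in wild-type cells with LPS (11.2% to 11.7%). In 5-LOΔ cells its share was 5.77% without LPS (5.61% to 5.94%) and 5.88% with LPS (5.73% to 6.04%). The difference between genotypes was -5.84 percentage points without LPS and -5.55 with LPS, whereas within a genotype LPS-treated and untreated cells differed by -0.184 (wild-type) and 0.110 (5-LOΔ) percentage points.

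The shares of the 4 have a fixed sum, so where the share of scr-HY3 is lower, the summed share of the other 3 is higher, though not that of each. The share of scr-HY4 was 56.2% in wild-type and 62.7% in 5-LOΔ cells without LPS, and 57.3% and 60.7% with LPS. That of scr-HY5 lay between 12.2% and 12.6% in all groups. scr-HY1 had 19.6% in wild-type and 19.3% in 5-LOΔ cells without LPS. With LPS its share was 18.8% in wild-type and 21.1% in 5-LOΔ cells, a difference of 2.29 percentage points. The counting intervals of the shares overlapped without LPS (19.3% to 19.8% in wild-type and 18.99% to 19.6% in 5-LOΔ cells) and did not overlap with LPS (18.5% to 19.03% and 20.8% to 21.3%). The spread between libraries, which the means do not give, is not part of these intervals.

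Shares in the sum of the other 3 members, computed after the shares of all 4 had been seen, do not depend on scr-HY3. On this scale scr-HY4 had 63.6% in wild-type (95% counting interval 63.3% to 63.9%) and 66.6% in 5-LOΔ cells (66.2% to 66.9%) without LPS. With LPS it had 64.7% (64.3% to 65.04%) and 64.5% (64.2% to 64.8%), intervals that overlap. scr-HY5 had 14.2% in wild-type and 12.97% in 5-LOΔ cells without LPS, and 14.1% and 13.1% with LPS, with intervals that did not overlap in either table. scr-HY1 had 22.2% and 20.4% without LPS, and 21.2% and 22.4% with LPS, again without overlap. These intervals hold the sampling of reads only, so a lack of overlap is no evidence of a difference beyond the spread between libraries.

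**Figure D2:**
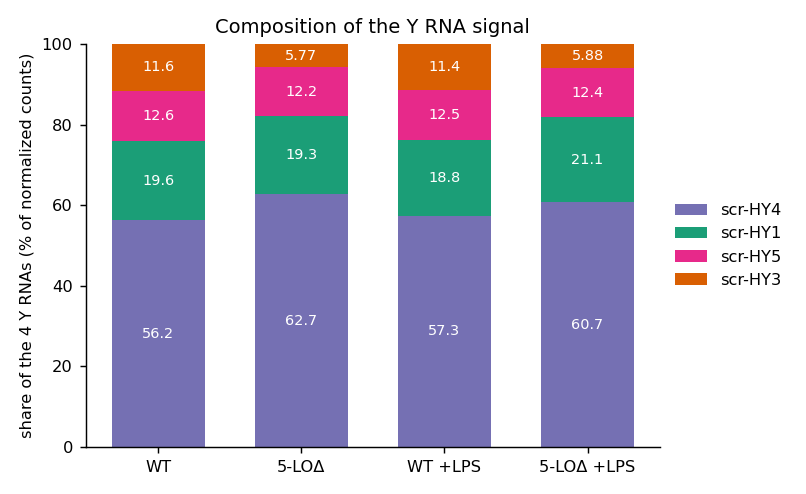
Share of each member in the summed normalized counts of the 4 Y RNAs (y axis, percent) in the 4 groups (x axis), with the percentage written in each block. The scr-HY3 block is 11.6% and 11.4% in the wild-type groups and 5.77% and 5.88% in the 5-LOΔ groups, and the scr-HY5 block stays between 12.2% and 12.6%.

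The comparison of genotypes asked which small RNAs differ between cells with and without 5-LO. Without LPS, scr-HY3 was 2.54-fold lower in 5-LOΔ than in wild-type cells, a log2 ratio of knockout to wild type of -1.34 (95% counting interval -1.39 to -1.29). With LPS it was 1.78-fold lower, a log2 ratio of -0.83 (-0.88 to -0.79). The libraries behind the tables are separate, so both values were obtained on different libraries, though not necessarily on different clones.

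For the other members the log2 ratios were smaller, and as deposited they were below 0 without LPS and above 0 with LPS, which for scr-HY4 and scr-HY5 did not hold when mature miRNAs were scaled to equal sums. scr-HY1 had a log2 ratio of -0.36 without LPS and 0.29 with LPS. scr-HY4 had -0.18 and 0.21, and scr-HY5 had -0.38 and 0.11. Summed, the 4 Y RNAs came to 33309 (wild-type) and 26424 (5-LOΔ) normalized counts without LPS, and to 27776 and 30271 with LPS. These sums were 0.310% and 0.218% of all normalized counts of the table without LPS, and 0.287% and 0.298% of those of the table with LPS.

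To read these ratios against the rest of the tables, entries with a mean of at least 10 normalized counts in both genotypes were used, 643 without LPS and 636 with LPS. All 4 Y RNAs are among them. A change of at least 1.5-fold was taken as the limit, and with 1 mean per group this is a size and not a test. Without LPS 1 of the 4 Y RNAs, scr-HY3, was past the limit on the lower side, as were 12.9% of all entries, and none was past it on the higher side, as were 13.1% of all entries. With LPS the same member was past it on the lower side (15.1% of all entries) and none on the higher side (13.1% of all entries). With 4 members, a count of 1 cannot be set apart from these shares. The split of all entries depends on the scaling, with 83 lower and 84 higher as deposited and 137 lower and 40 higher at equal sums of all entries without LPS, and 96 lower and 83 higher against 166 lower and 34 higher at equal sums of mature miRNAs with LPS. Of the 630 entries with such means in all 4 groups, 8.73% were at least 1.5-fold lower in both tables, scr-HY3 among them. In rank, 10 of 643 entries had a lower log2 ratio than scr-HY3 without LPS and 61 of 636 with LPS. As deposited, the median log2 ratio of the 4 Y RNAs was -0.37 without LPS and 0.16 with LPS, beside 0.03 and 0.00 over all entries. At equal sums of mature miRNAs it was -0.51 without LPS and -0.09 with LPS, beside -0.12 and -0.24 over all entries.

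Other scalings of the genotypes moved all Y RNAs by the same amount. When the genotypes were rescaled to equal sums of mature miRNAs, scr-HY4 and scr-HY5 had log2 ratios of -0.04 and -0.14 with LPS and no longer differed in sign from those without LPS. That scaling also brought the median of all entries with LPS to -0.24, and relative to this median both were still higher in 5-LOΔ cells. Over all scalings and pseudocounts tried, scr-HY3 stayed between -1.52 and -1.34 without LPS and between -1.08 and -0.83 with LPS. scr-HY1 remained above 0 with LPS, with a lowest value of 0.05.

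**Figure D3:**
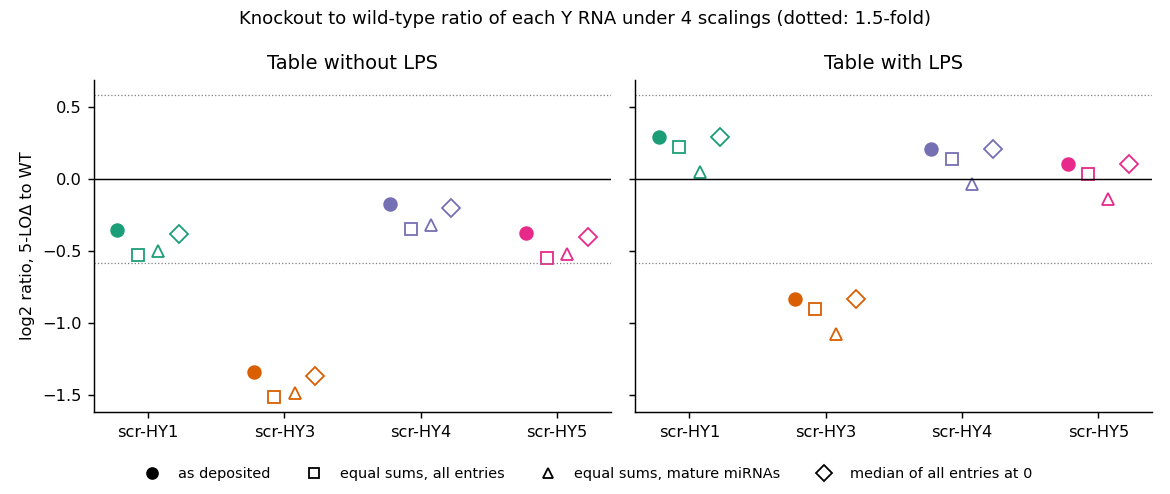
Log2 ratio of the 5-LOΔ to the wild-type mean (y axis) of each Y RNA (x axis), without LPS on the left and with LPS on the right, under 4 scalings shown by marker shape; dotted lines mark a 1.5-fold change. scr-HY3 lies below the lower dotted line under all 4 scalings in both panels, and the other members lie between the dotted lines, below 0 without LPS and mostly above 0 with LPS.

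Ratios between members remove the scaling between groups, though not the size factors that weight the libraries within a mean. The ratio of scr-HY3 to the sum of the other 3 Y RNAs was 0.131 in wild-type and 0.0613 in 5-LOΔ cells without LPS, a 2.15-fold lower ratio with a log2 change of -1.10 (95% counting interval -1.15 to -1.05). With LPS it was 0.129 and 0.0625, a 2.07-fold lower ratio with a log2 change of -1.05 (-1.10 to -0.99). The difference between these log2 changes was 0.05 (-0.02 to 0.13), which is within the counting error. By contrast, the log2 ratio of scr-HY3 itself was higher with LPS by 0.51 (0.44 to 0.58), and those of the others by 0.65 (scr-HY1), 0.38 (scr-HY4) and 0.48 (scr-HY5).

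In each of the 3 pairs that hold scr-HY3, scr-HY3 was the member with the lower relative level in 5-LOΔ cells, in both tables. The ratio of scr-HY3 to scr-HY4 changed by -1.17 on the log2 scale without LPS and by -1.04 with LPS. That of scr-HY3 to scr-HY5 changed by -0.97 and -0.94. The ratio of scr-HY1 to scr-HY3, members that both bind nucleolin, was higher in 5-LOΔ cells by 0.99 and 1.13. The change with LPS minus that without LPS was 0.12 for scr-HY3 to scr-HY4 (95% counting interval 0.05 to 0.20) and 0.14 for scr-HY1 to scr-HY3 (0.06 to 0.22), both beyond the counting error, and 0.03 for scr-HY3 to scr-HY5 (-0.06 to 0.12), within it. The pairs without scr-HY3 moved far less. The log2 change was -0.18 and 0.08 for scr-HY1 to scr-HY4, 0.02 and 0.18 for scr-HY1 to scr-HY5, and 0.20 and 0.10 for scr-HY4 to scr-HY5. For scr-HY1 to scr-HY5 without LPS the counting interval, from -0.03 to 0.07, included 0. How far libraries of a genotype differ in these ratios cannot be read from the means.

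**Figure D4:**
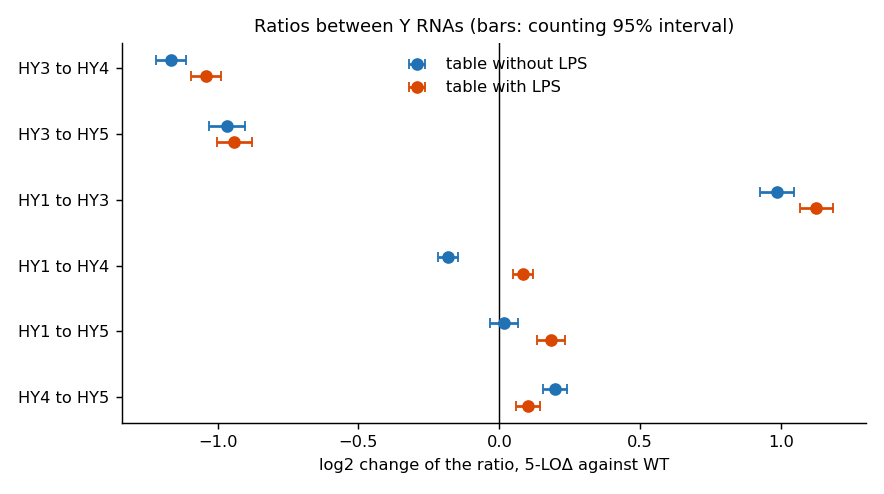
Log2 change of the ratio between each pair of Y RNAs (x axis) from wild-type to 5-LOΔ cells for the 6 pairs (y axis), in the table without LPS (blue) and with LPS (orange), with counting 95% intervals as error bars. The 3 pairs with scr-HY3 lie furthest from 0, at -1.17 and -1.04 (scr-HY3 to scr-HY4), -0.97 and -0.94 (scr-HY3 to scr-HY5) and 0.99 and 1.13 (scr-HY1 to scr-HY3), and the 3 other pairs lie between -0.18 and 0.20.

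RNA polymerase III also makes the nuclear-encoded tRNAs and 5S rRNA, and the tables list tRNA entries and a 5S rRNA entry. No entry is named as 7SK, 7SL, U6, RNase P, RNase MRP, vault RNA or BC200, nor as miR-1975 or miR-1979, names once given to fragments of Y RNAs. Of the 57 tRNA entries 36 passed the minimum mean without LPS, of which 18 were at least 1.5-fold lower and 0 higher in 5-LOΔ cells, with a median log2 ratio of -0.59. With LPS 37 passed, of which 30 were lower and 0 higher, and the median was -1.02. The names of 2 tRNA entries in each table end in (m), which the files do not explain and which may mark mitochondrial tRNAs, not made by this polymerase. Without them, an alternative chosen after seeing the data, 18 of 34 and 30 of 35 were lower and 0 higher, with medians of -0.65 and -1.05. The 3 tRNA entries with the highest wild-type mean had log2 ratios of -0.34 (Glu-GAG_), -0.50 (Asp-GAY) and -0.05 (Gln-CAA_) without LPS, and -0.73, -1.57 and -1.41 with LPS. The 5S rRNA, part of the large ribosomal subunit, was on the other side, with 1665280 (wild-type) and 2600090 (5-LOΔ) normalized counts without LPS (log2 ratio 0.64) and 1522660 and 2091230 with LPS (0.46).

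The ratio of the summed Y RNAs to the summed tRNAs differed between genotypes mainly with LPS. It was 0.502 in wild-type and 0.510 in 5-LOΔ cells without LPS, but 0.301 and 0.674 with LPS. Their ratio to the summed mature miRNAs was 0.325 and 0.233 without LPS, and 0.298 and 0.274 with LPS.

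**Figure D5:**
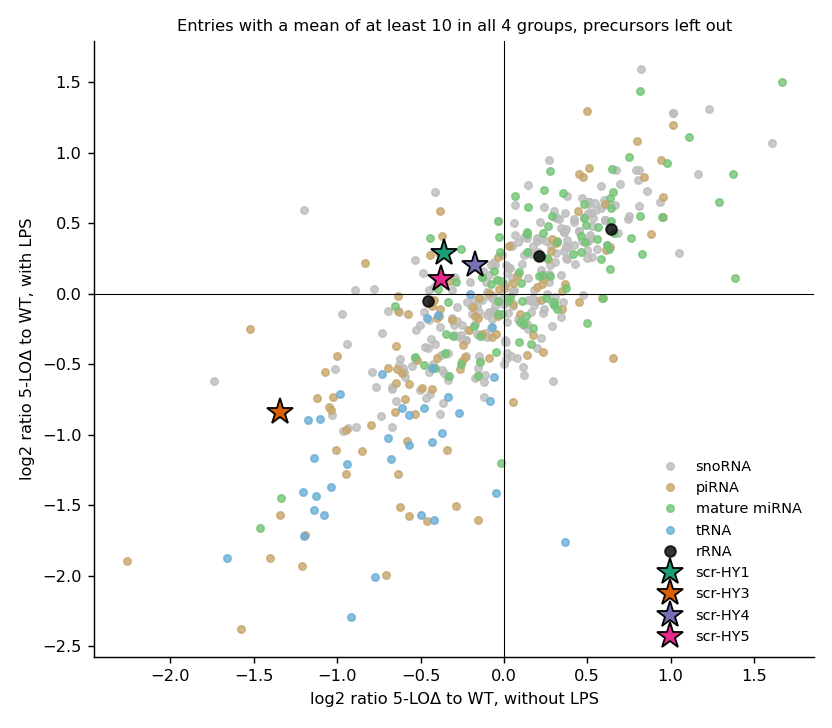
Log2 ratio of 5-LOΔ to wild-type means without LPS (x axis) against that with LPS (y axis) for 533 of the 630 entries with a mean of at least 10 in all 4 groups (miRNA precursors are left out), coloured by RNA class, with the Y RNAs as stars. scr-HY3 lies at -1.34 and -0.83, and the other Y RNAs, as deposited, lie left of 0 on the x axis and above 0 on the y axis (at equal sums of mature miRNAs scr-HY4 and scr-HY5 would lie below 0 on the y axis).

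Finally, the entries whose pair of log2 ratios (without and with LPS) was nearest to that of each member were sought among 412 others with a mean of at least 50 in all 4 groups, precursors left out. The measure is the Euclidean distance over these 2 values. For scr-HY3 the nearest were an entry joining piR_004307 and piR_017723 (distance 0.24), tRNA-Val-GTG (0.25) and piR_019354 (0.29). For scr-HY1 they were piR_019368 (0.03), piR_018165 (0.08) and an entry joining piR_000765, piR_001312 and piR_018570 (0.12). For scr-HY4 they were the snoRNA ACA41 and both arms of miR-3607, all 3 at 0.10. scr-HY5 had the closest neighbours, a pair of entries that join piR_018570 and piR_001312 with piR_020326 or with piR_000765 (0.003 and 0.010), followed by the snoRNA U64 (0.03). All 3 distances of scr-HY3 were larger than any of the other members. Only 10 of 643 entries had a lower log2 ratio than scr-HY3 without LPS. Entries are sparse around such a value, so these distances restate its ratio and are no separate result.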

How the data were processed

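Small RNA of 12 libraries in 4 groups was sequenced. The signal columns deposited by the authors hold the mean of normalized counts of a group, made by trimming adapters and annotating reads to hg19 with omiRas, whose scaling and treatment of reads with several matches the sources used here do not give. Further columns hold the authors' log2 fold changes, p-values and FDR and were not used. Members and lists were chosen with earlier results of these data known, and the named entries are the Y RNAs, 5S rRNA, the 3 highest tRNAs and the 3 nearest entries of each member.

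Log2 ratios were taken from the means without a pseudocount. Size factors were found as the 3 steps whose whole multiples give all means of at most 10, which succeeded in exactly 1 way for every such value in the 4 groups (128 to 136 distinct values). The step was tested on simulated data. Counting intervals are normal 95% intervals, assuming Poisson sampling in each library. No test was fitted, since each group has 1 mean. Sequences came from GRCh37 with GENCODE (1-based positions), names from RefSeq. The sequence of scr-HY3 is not reported here. Identity was counted in global alignments, genomic copies with BLAST 2.17.0 (word size 11, maximum E value 1e-05, at least 90% identity over at least 90% of the length) and folds with ViennaRNA 2.7.2. Python 3.11.15, numpy 2.4.6, pandas 2.3.3, matplotlib 3.10.9, Biopython 1.88 and samtools 1.23.1 were used.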

Additional observations from a re-analysis of the deposited data

How the results depend on the processing

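No paired analysis was possible because the deposited columns are means of a group and carry no replicate number. For the same reason no library could be left out: the Y RNA means are too high for the reads of single libraries to be recovered. Values as deposited stand in the report, and those under other scalings follow in the order scr-HY1, scr-HY3, scr-HY4, scr-HY5. Without LPS, the log2 ratios were -0.53, -1.52, -0.35 and -0.55 with equal sums over all entries, -0.53, -1.52, -0.35 and -0.55 with equal sums over entries that are not scRNA, and -0.50, -1.49, -0.32 and -0.52 with equal sums over mature miRNAs. With the median of all entries set to 0, scr-HY4 had -0.20. With LPS, they were 0.22, -0.91, 0.14 and 0.035 with equal sums over all entries, 0.22, -0.90, 0.14 and 0.036 over entries that are not scRNA, and 0.047, -1.08, -0.036 and -0.14 over mature miRNAs. The differences between the tables were 0.75, 0.61, 0.49 and 0.59 with equal sums over all entries. These all moved by more than the counting error, since every member shifts with the scaling. At a 2-fold limit, 0 Y RNAs were lower with LPS, against 1 at 1.5-fold. At that limit 33 entries were lower and 16 higher without LPS, and 43 and 15 with LPS, beside 83 and 84 of 643, and 96 and 83 of 636, at 1.5-fold. Among entries with a mean above 0 in both genotypes, 182 (19.9%) of 914 were at least 1.5-fold lower and 156 (17.1%) higher without LPS, and 183 (20.7%) and 149 (16.9%) of 883 with LPS. At a minimum mean of 50, 53 (10.5%) of 503 were lower and 56 (11.1%) higher without LPS, and 62 (12.8%) and 46 (9.504%) of 484 with LPS. Without precursor entries, the Y RNAs made up 0.312% (wild-type) and 0.220% (5-LOΔ) without LPS, and 0.289% and 0.301% with LPS. Pseudocounts of 1 and 10 moved the log2 ratios and shares by less than the counting error. Equal sums of all entries moved the median log2 ratio over entries from 0.03 to -0.15 without LPS. The spread between libraries, which sets how firmly any of these values can be read, cannot be taken from the means.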
